A study of Bombyx mori with 4 samples.

Results

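The silkworm transposons described here are 51 sequences that an earlier list of transposons names but assigns to none of the major classes (LINE, SINE, LTR or DNA), and that were expressed in BmN4 cells. They were taken from a table of 18596 sequences, in which 1716 transposons come from this earlier, curated list and 1173 of those have no major class. The 51 were selected on measured values, namely more than 10 RPKM (reads per kilobase of sequence and per 1000000 genome-mapped reads) in at least 1 of the 2 conditions. Of the 51, 50 are labelled Unclassified and 1, BmTE_RM6-2105, is labelled DIRS. Since the level in either condition chose them, their levels and the differences between the conditions are given as a description, with no test.

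Transposons are mobile DNA elements that copy or move themselves within a genome. LINE and LTR elements move through an RNA copy, SINEs depend on the enzymes of LINEs, and DNA transposons move as DNA. DIRS elements are retrotransposons that insert with a tyrosine recombinase. In animal germ cells, PIWI proteins loaded with small RNAs (piRNAs) find transposon transcripts by base pairing and cleave them. Siwi is the silkworm PIWI protein that cleaves transposon transcripts in BmN4 cells, and the cleaved RNA is passed on to make further piRNAs. An unclassified sequence is one that is listed as a repeat but that could not be placed in a class, so that no encoded protein or mode of movement is known for it from its label.

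Total RNA was sequenced from BmN4, a cultured cell line derived from silkworm ovary. The control cells received siRNA against luciferase (Luc KD, hereafter the control), a gene that the cells lack, and the others received siRNA against Siwi (Siwi KD), both by electroporation. The question of this comparison is which RNAs are present when Siwi-dependent silencing is lowered. There were 2 libraries in each condition, and both conditions are of this 1 cell line. The authors merged the libraries of a condition, so there was 1 value per sequence and condition, and none of the differences below has a replicate check. No p-value was computed.

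The control libraries gave 77350240 counted reads and the Siwi KD libraries 84961588, all in even numbers, as if each pair counted with both of its mates. RPKM values rested on 122229138 and 129779634 genome-mapped reads. Each of the 51 transposons had at least 480 reads in each condition. The intervals and errors below were computed from read pairs and cover counting error only. Reads that map to several places were kept by the authors, so similar sequences can share reads and the value of a single transposon is uncertain to that extent. Identity of the cells and the level of Siwi could not be checked by gene name, because 0 of the 16880 gene model identifiers matched a RefSeq gene. In RNA from whole cultures, a difference in RNA per cell cannot be told apart from a difference in the share of cells with that RNA.

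Levels among the 51 transposons were very unequal. BmTE_RM5-571, a sequence of 9536 nt and the longest of them, had 27227 RPKM in the control and 24497 RPKM in Siwi KD, the highest value of all 18596 sequences in both conditions. Ribosomal RNA had been depleted with reagents designed for mammals (human, mouse and rat), and whether BmTE_RM5-571 resembles ribosomal RNA was not tested, so its value need not stand for a transposon transcript. It made up 97.4% of the reads of the 51 transposons in the control and 97.6% in Siwi KD. The other 50 transposons ranged from 8.42 to 609 RPKM in the control and from 8.85 to 442 RPKM in Siwi KD. Over all 51, the median was 21.1 RPKM (quartiles 13.3 and 47.3) in the control and 24.1 RPKM (quartiles 14.9 and 81.6) in Siwi KD. Thus, many of them lay close to the threshold of 10 RPKM. Values above 100 RPKM were reached by 9 transposons in the control and by 12 in Siwi KD.

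**Figure D1:**
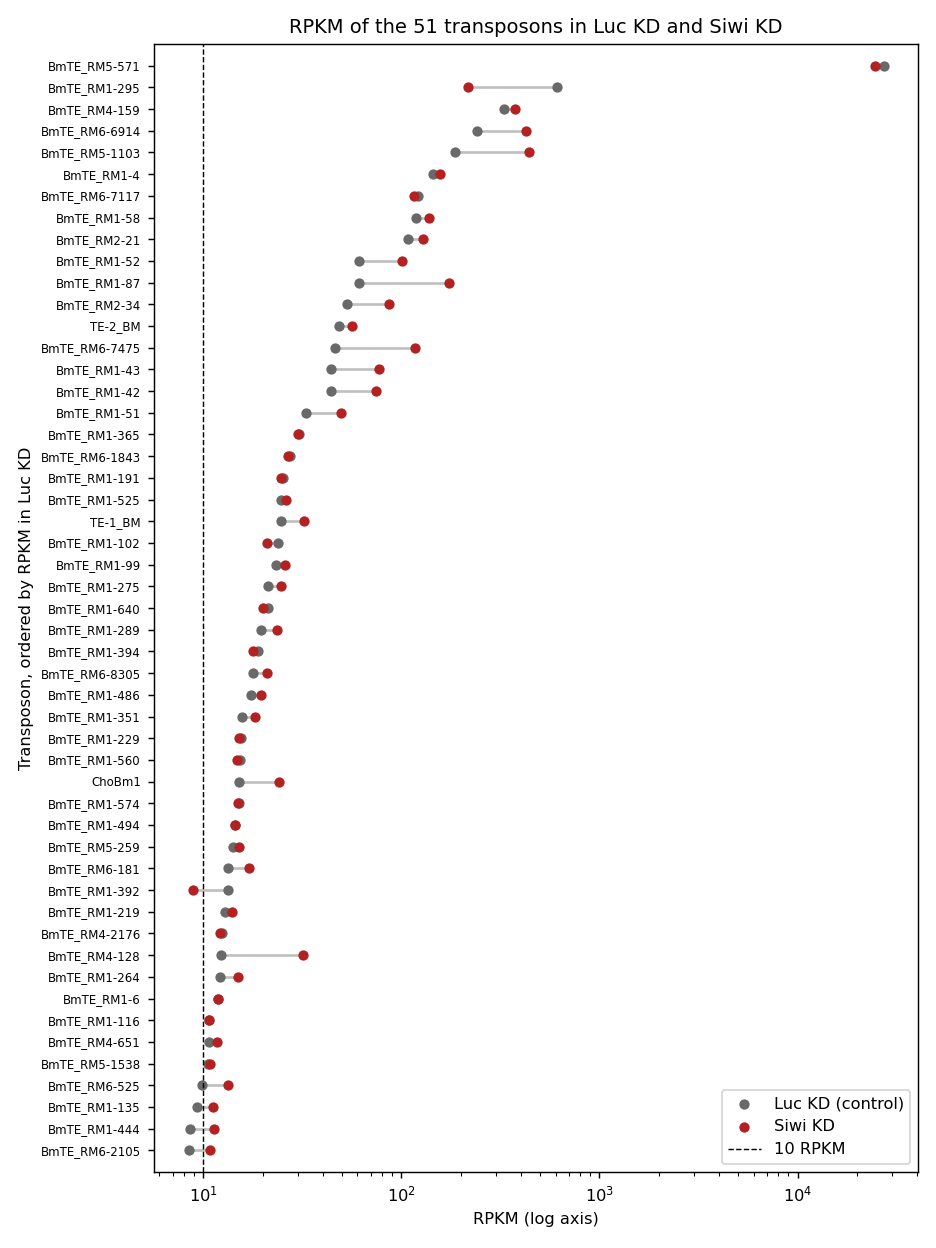
RPKM (log axis) of each of the 51 transposons in the control (grey) and Siwi KD (red), ordered by the level in the control, with a dashed line at 10 RPKM. BmTE_RM5-571 sits far to the right of all others near 27227 and 24497 RPKM, and BmTE_RM1-295 has the longest line to the left, from 609 to 217 RPKM.

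The 51 transposons received 32571592 reads in the control, which is 42.1% of all reads counted (95% Wilson interval 42.09% to 42.12%). In Siwi KD they received 31064800 reads, or 36.6% (36.55% to 36.58%). BmTE_RM5-571 accounted for 41.0% and 35.7% of all reads counted, respectively, and the other 50 together for 1.08% in the control and 0.880% in Siwi KD. Without BmTE_RM1-295 as well, the remaining 49 had 0.433% in the control and 0.656% in Siwi KD. Hence, the lower share of the other 50 in Siwi KD rested on BmTE_RM1-295. For the group of 51, most of the difference in share lay in BmTE_RM5-571. The share was still lower without it, and higher without BmTE_RM1-295 as well. All other transposons of the table took 19.2% of the reads in the control and 28.9% in Siwi KD, and protein-coding genes took 38.7% and 34.5%.

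**Figure D2:**
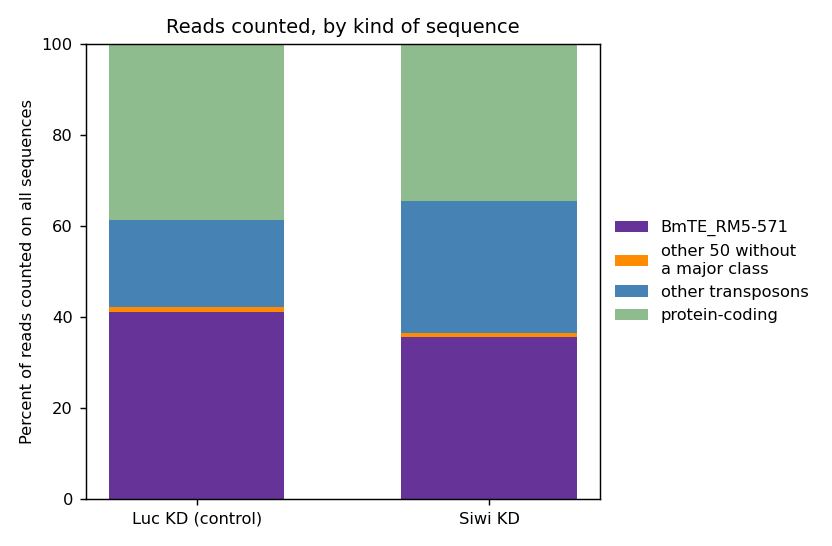
Percent of the reads counted on all sequences in the control and Siwi KD that fell on BmTE_RM5-571, on the other 50 expressed transposons without a major class, on all other transposons and on protein-coding genes. The share of BmTE_RM5-571 is 41.0% in the control and 35.7% in Siwi KD, whereas the other 50 form a thin band of 1.08% and 0.880% (0.433% and 0.656% without BmTE_RM1-295).

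Summed RPKM of the 51 transposons was 30033 in the control and 27846 in Siwi KD, a ratio of 0.927. They held 45.8% of the RPKM of all 389 expressed transposons in the control and 32.5% in Siwi KD. This direction was set by BmTE_RM5-571 and by the scaling, since relative to the median of protein-coding genes the ratio was 1.02. Without BmTE_RM5-571, the sum was 2806 in the control and 3349 in Siwi KD, a ratio of 1.19, and without BmTE_RM1-295 as well it was 2197 and 3132, a ratio of 1.43. The sum over the other 338 expressed transposons was 35586 in the control and 57834 in Siwi KD, a ratio of 1.63.

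Fold changes (FCs) were calculated as the log2 ratio of RPKM + 1 in Siwi KD over control. The median log2 FC of the 51 transposons was 0.18, with quartiles of -0.02 and 0.37 and a range from -1.48 to 1.49. A higher value in Siwi KD was found for 36 of the 51 (70.6%), against 38.0% of all 3006 expressed sequences and 85.6% of the 389 expressed transposons. There were 4 with a log2 FC above 1 (7.84%), against 3.63% of expressed sequences and 17.0% of expressed transposons. A log2 FC below -1 was found for 1 (1.96%), against 1.06% and 0.514%. The shares higher in Siwi KD and past the upper fold thus lay between those of all sequences and those of all transposons. Passing 10 RPKM by Siwi KD alone requires a higher value there. This applied to 4 transposons, and 1 passed by the control alone. For the 46 that passed in both conditions the median log2 FC was 0.15.

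The deposited scaling bears on small differences. The median log2 FC of the 2617 expressed protein-coding genes was -0.13, a shift of more than 0.1. Relative to that median, 47 of the 51 transposons were higher in Siwi KD in place of 36, since 11 of the 15 with a negative log2 FC lay above -0.13. When BmTE_RM5-571 was left out of the genome-mapped reads, log2 FCs shifted by -0.05 and 33 were higher. Each scaling shifts the other sequences as well, and the matching shares of all expressed sequences and all expressed transposons were not computed. Hence, the direction of log2 FCs near 0 depends on the scaling. By counting error alone, the 95% interval of the RPKM ratio was above 1 for 28 transposons, below 1 for 3 and included 1 for 20. The same count was not made over all expressed sequences or all expressed transposons, so these numbers have no background share beside them.

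Of the 4 transposons with a log2 FC above 1, BmTE_RM1-87 had the highest. This sequence of 410 nt had 60.8 RPKM in the control (3046 reads) and 173 RPKM in Siwi KD (9204 reads), or a log2 FC of 1.49 ± 0.04 (counting error). BmTE_RM6-7475, of 596 nt, had 46.0 RPKM in the control (3354 reads) and 117 RPKM in Siwi KD (9018 reads), or a log2 FC of 1.32 ± 0.04. Both were above the median of the 51 in the control (21.1 RPKM), where they ranked 11 and 14, and ranked 6 and 10 in Siwi KD. BmTE_RM4-128, of 918 nt, was near the threshold in the control with 12.3 RPKM (1376 reads) and had 31.8 RPKM (3790 reads) in Siwi KD, a log2 FC of 1.31 ± 0.06. BmTE_RM5-1103, of 1083 nt, was already abundant, with 186 RPKM in the control (24642 reads) and 442 RPKM in Siwi KD (62192 reads), or a log2 FC of 1.24 ± 0.02. In Siwi KD it was second only to BmTE_RM5-571. The 4 come from different name sets of the list, are at most 1083 nt long and span a wide range of levels in the control. Their RPKM ratios were 2.85, 2.53, 2.59 and 2.38, in the order given. The RPKM of the 4 together was higher by 459 in Siwi KD, of 953 over the 36 transposons that were higher there.

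BmTE_RM1-295 was the only one of the 51 with a log2 FC below -1. This sequence of 6743 nt had 609 RPKM in the control (501536 reads) and 217 RPKM in Siwi KD (189990 reads). Its RPKM ratio was 0.357 (95% counting interval 0.354 to 0.359), and its log2 FC of -1.48 ± 0.01 was the lowest of all 389 expressed transposons. Its rank among them went from 13 in the control to 27 in Siwi KD. It is the second longest of the 51 after BmTE_RM5-571, whose RPKM ratio was 0.900 (0.899 to 0.900) and whose log2 FC was -0.15. The 2 sequences of more than 6000 nt were thus both lower in Siwi KD, but relative to the protein-coding median the log2 FC of BmTE_RM5-571 was -0.02 and that of BmTE_RM1-295 was -1.35.

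A log2 FC between 0.5 and 1 was found for 7 further transposons, and the background share in this band was not computed. The most abundant was BmTE_RM6-6914, of 4176 nt, with 241 RPKM in the control (122954 reads) and 424 RPKM in Siwi KD (229600 reads), or a log2 FC of 0.81. By reads, it was the third of the 51 in the control. BmTE_RM1-43 and BmTE_RM1-42, of 3084 and 3457 nt, had nearly the same level in the control, 44.2 and 44.1 RPKM. In Siwi KD they had 76.9 and 74.4 RPKM, so that their log2 FCs of 0.78 and 0.74 were also close. Whether they share reads was not tested. A similar pair of lengths was BmTE_RM1-52 (423 nt) and BmTE_RM1-51 (422 nt), with 61.0 and 33.0 RPKM in the control and 101 and 49.7 RPKM in Siwi KD. Their log2 FCs were 0.71 and 0.58. BmTE_RM2-34, of 580 nt, had 53.0 RPKM in the control and 86.4 RPKM in Siwi KD, a log2 FC of 0.69. ChoBm1, of 5412 nt, had 15.2 RPKM in the control (10046 reads) and 24.1 RPKM in Siwi KD (16906 reads), or a log2 FC of 0.63.

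Of the 10 most abundant transposons of the control, 6 had small log2 FCs, from -0.15 to 0.25. BmTE_RM5-571, described above, is 1 of them. BmTE_RM4-159, of 603 nt, was the third, with 328 RPKM in the control and 373 RPKM in Siwi KD (log2 FC 0.18). BmTE_RM1-4, of 1105 nt, had 145 and 156 RPKM (log2 FC 0.11), and BmTE_RM1-58, of 311 nt, had 119 and 138 RPKM (log2 FC 0.21). These 3 and BmTE_RM2-21, of 710 nt, with 108 and 129 RPKM (log2 FC 0.25), were higher in Siwi KD, at most 1.19-fold. BmTE_RM6-7117, which at 195 nt is the shortest of the 51, had 122 RPKM in the control and 116 RPKM in Siwi KD, a log2 FC of -0.07. The counting interval of its ratio, 0.887 to 1.03, included 1. The 10 also included BmTE_RM5-1103 and BmTE_RM1-295, the former higher and the latter lower in Siwi KD.

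The other 2 transposons that carry a name of their own were higher in Siwi KD. TE-1_BM, of 1387 nt, had 24.6 RPKM in the control and 32.3 RPKM in Siwi KD, a log2 FC of 0.38. TE-2_BM, of 519 nt, had 48.6 and 56.4 RPKM, a log2 FC of 0.21. The DIRS element BmTE_RM6-2105, of 1574 nt, had 8.42 RPKM in the control (1620 reads) and 10.9 RPKM in Siwi KD (2220 reads), or a log2 FC of 0.33 ± 0.06. It passed the threshold by its level in Siwi KD.

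The largest part of the list was close to 0. A log2 FC between -0.2 and 0.2 was found for 24 transposons, of which 11 were higher and 13 lower in Siwi KD. The 5 with the smallest differences were BmTE_RM1-116, BmTE_RM1-6, BmTE_RM1-494, BmTE_RM1-574 and BmTE_RM1-365. BmTE_RM1-116 had 10.7 RPKM in both conditions, from 1144 and 1216 reads, and BmTE_RM1-6 had 11.8 RPKM in both, from 1880 and 2002 reads. BmTE_RM1-494 had 14.5 RPKM in the control and 14.4 in Siwi KD, BmTE_RM1-574 had 15.1 and 14.9, and BmTE_RM1-365 had 30.4 and 30.0. A further 14 transposons had a log2 FC between 0.2 and 0.5, with a median of 0.25. Besides BmTE_RM1-295, only BmTE_RM1-392 had a log2 FC below -0.2. This sequence of 418 nt had 13.3 RPKM in the control (680 reads) and 8.85 RPKM in Siwi KD (480 reads), or a log2 FC of -0.54 ± 0.11, and it passed the threshold by the control alone.

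Name set was not used to choose the 51 transposons. Length was not a criterion of its own, but it entered the choice through RPKM, which divides reads by length. The median length was 721 nt (quartiles 563 and 1328 nt), compared with 2880 nt for the other 338 expressed transposons. Of these, 239 were gene models, with a median of 3132 nt. Among the expressed curated classes, the median was 413.5 nt for SINE, 1278 nt for DNA, 3437 nt for LTR and 3733 nt for LINE transposons. Hence, short length was not particular to the 51. Of the 51, 29 were up to 1000 nt long, with a median log2 FC of 0.16, and 15 were longer and up to 3000 nt long, with a median of 0.12. All 5 transposons longer than 3000 nt and up to 6000 nt were higher in Siwi KD, with log2 FCs from 0.40 to 0.81 and a median of 0.74. These were BmTE_RM6-525, ChoBm1, BmTE_RM1-42, BmTE_RM1-43 and BmTE_RM6-6914. Of the other 338 expressed transposons, of any length, 87.9% were higher in Siwi KD, so that all 5 being higher is near that share. Whether BmTE_RM1-42 and BmTE_RM1-43 share reads was not tested. The longest 2 of the 51, described above, were lower. Across the 51, Spearman's rho was 0.13 between length and log2 FC, and 0.27 without the 2 most abundant in the control (n = 49). The points share the same libraries, and the lengths enter the RPKM values, so this is a description only.

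**Figure D3:**
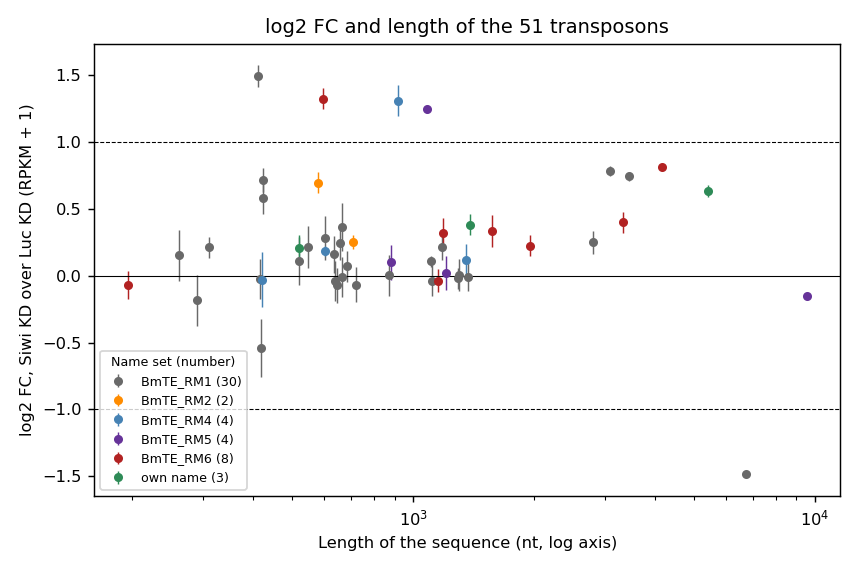
log2 FC of RPKM + 1 (Siwi KD over control) against length (nt, log axis) for the 51 transposons, coloured by the name set in the list, with 95% counting intervals as bars and dashed lines at -1 and 1. The 5 points between 3000 and 6000 nt lie between 0.40 and 0.81, and BmTE_RM1-295 lies alone at -1.48.

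By name set, 30 of the 51 belong to BmTE_RM1, 8 to BmTE_RM6, 4 each to BmTE_RM4 and BmTE_RM5, and 2 to BmTE_RM2, and 3 have names of their own. The median log2 FC was 0.11 for BmTE_RM1, in which 19 of 30 were higher in Siwi KD, and 0.33 for BmTE_RM6, in which 6 of 8 were. It was 0.15 for BmTE_RM4, 0.06 for BmTE_RM5, 0.47 for BmTE_RM2 and 0.38 for those with names of their own. Each of the BmTE_RM1, BmTE_RM4, BmTE_RM5 and BmTE_RM6 sets held 1 of the 4 transposons with a log2 FC above 1. Within BmTE_RM1, log2 FCs ran from -1.48 to 1.49, and 5 of the 6 sets hold 8 transposons or fewer. Whether the sets differ was not tested.

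Beside the expressed curated transposons with a class, the 51 had the lowest median log2 FC. The median was 0.73 for the 33 LTR transposons and 0.29 for the 25 LINEs. It was 0.36 for the 8 SINEs, 0.37 for the 33 DNA transposons and 0.37 for the 239 gene models that are annotated as transposons. By other measures the SINEs lay below the 51. Of the SINEs, 62.5% were higher in Siwi KD, against 70.6% of the 51, 84% of the LINE, 87.9% of the DNA and 93.9% of the LTR transposons. The lower quartile of the SINEs was -0.18 against -0.02, and their ratio of summed RPKM 0.870 against 0.927. The share with a log2 FC above 1 was 39.4% of the LTR, 4% of the LINE, 0% of the SINE and 6.06% of the DNA transposons and 19.2% of the gene models. The 7.84% of the 51 was thus far from that of the LTR transposons and near that of the LINE and DNA transposons. With no replicate values, the difference between the groups was not tested.

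**Figure D4:**
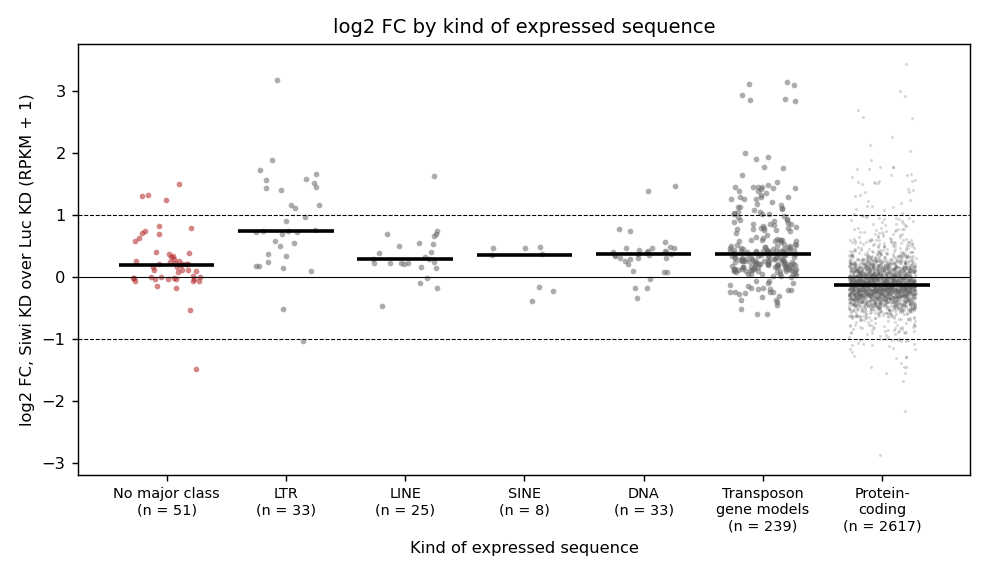
log2 FC of RPKM + 1 (Siwi KD over control) of every expressed sequence, by kind, with black bars at the medians and dashed lines at -1 and 1. The 51 transposons without a major class (red) have a median of 0.18, below those of the classed transposons (0.29 to 0.73) and above that of protein-coding genes (-0.13).

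Few curated transposons without a major class were expressed. The 51 are 4.35% of 1173, whereas 22.6% of 146 LTR, 9.65% of 259 LINE, 50% of 16 SINE and 27% of 122 DNA transposons passed 10 RPKM. For 753 of the 1173 (64.2%), neither condition had a read. Sequences without a major class were also short, with a median length of 286 nt over all 1173. Of the 1122 at or under 10 RPKM, 206 had 1 to 99 reads over both conditions and 163 had at least 100 reads. The 163 had a median log2 FC of 0.11, with quartiles of -0.06 and 0.28, and 112 of them were higher in Siwi KD. BmTE_RM6-2892, of 555 nt, was the only one of them with a log2 FC above 1, at 3.18 RPKM in the control (216 reads) and 9.41 RPKM in Siwi KD (678 reads), and none (0) was below -1. For the 226 curated transposons with a major class under the same limits, the median log2 FC was 0.22, and 188 were higher in Siwi KD. By class, the median was 0.26 for 82 LTR and 0.26 for 57 DNA transposons, 0.14 for 4 SINEs and 0.10 for 83 LINEs. The low median of the 163 was thus shared by the LINEs. A pseudo-count of 1 shrinks the log2 FC of such low values.

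**Figure D5:**
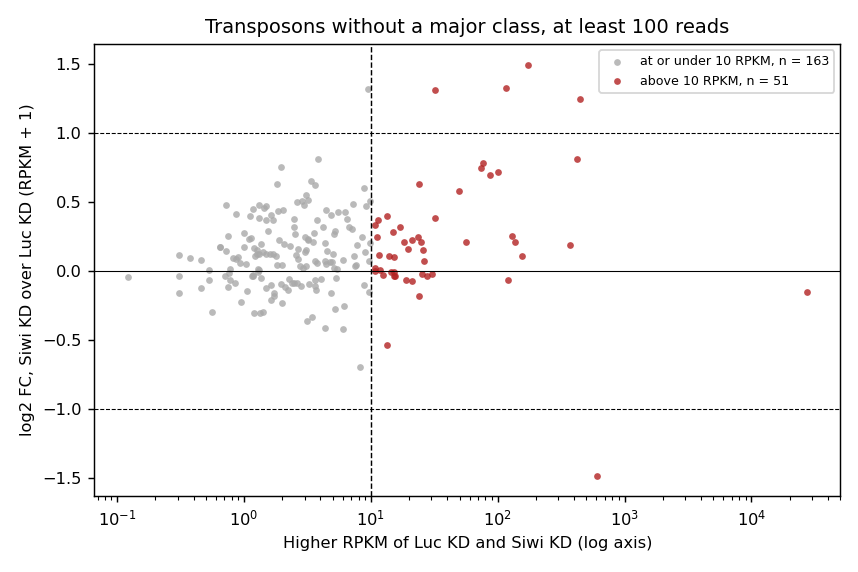
log2 FC of RPKM + 1 (Siwi KD over control) against the higher RPKM of both conditions (log axis) for the curated transposons without a major class with at least 100 reads, 163 at or under 10 RPKM (grey) and 51 above it (red). The grey points have a median of 0.11 and 1 of them lies above the dashed line at 1, whereas 4 red points do.

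At the threshold itself, values ran on without a gap. Just inside it were BmTE_RM1-116, with 10.7 RPKM in both conditions, BmTE_RM5-1538, with 10.6 RPKM in the control and 10.8 RPKM in Siwi KD, and BmTE_RM6-2105. Just outside it were BmTE_RM1-600, with 6.64 RPKM in the control and 9.88 in Siwi KD, BmTE_RM5-177, with 8.38 and 9.79 RPKM, and BmTE_RM5-345, with 9.22 and 9.74 RPKM.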

How the data were processed

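Reads of BmN4 cells were corrected and trimmed by the authors (Trim Galore 0.6.6, among other tools), mapped with STAR, first to the silkworm genome and afterwards to their own library of genes and transposons. Sense reads were counted with SAMtools, keeping reads with several matches. The deposited read counts are these counts per sequence, with both replicates of a condition merged. The RPKM values are also the authors' own: each count over the sequence length and over all genome-mapped reads, with no pseudo-count added. The table gives no coordinates, and sequences were not used here.

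From these, log2 FCs of RPKM + 1, sums, shares with 95% Wilson intervals and counting errors (from read pairs, Poisson) were computed with Python 3.11.15, numpy 2.4.6, pandas 2.3.3 and scipy 1.17.1, and plots were drawn with matplotlib 3.10.9. The arithmetic was tested on simulated data. A test across libraries was planned in case the table held them separately. Since it holds 1 merged value per condition, none was run.

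The 51 transposons, the lists and the rules were chosen with earlier results of these data known. The transposons to be named were those with names of their own, the 10 with the highest RPKM in the control, all with a log2 FC beyond 1 or -1, the 5 with the smallest log2 FC, the longest and the shortest, and the 3 on each side of the threshold. BmTE_RM1-42, BmTE_RM1-43, BmTE_RM1-51, BmTE_RM2-34, BmTE_RM1-392, BmTE_RM6-525, BmTE_RM6-2892 and the sequences of the closing section were named after their values were seen. Cell type markers could not be matched. Alternatives covered the pseudo-count, the threshold, the scaling and the transposons included.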

Additional observations from a re-analysis of the deposited data

How the results depend on the processing

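No paired analysis was possible because the table holds 1 merged value per condition, and fits without each replicate were not run for the same reason. The counts past a log2 FC of 1 (4) or -1 (1) stayed within 1.5 times under pseudo-counts of 0.1 and 10, a threshold of 20 RPKM, no threshold with at least 100 reads, and both other scalings. The shares did not, as the number of transposons changed with the threshold. Above a log2 FC of 1 there were 4 of 51 as reported, 4 of 30 at 20 RPKM and 5 of 214 without the threshold. The 214 include the 51, so their count could not be lower. The median log2 FC of 0.18 moved to 0.12 without the threshold, over 214 transposons, and to 0.32 relative to the protein-coding median. The ratio of summed RPKM, 0.927, was above 1 in place of below 1 without BmTE_RM5-571 (1.19), relative to the protein-coding median (1.02) and without the 2 highest transposons (1.43). It was 0.954 by reads, 0.926 at a threshold of 20 RPKM and 0.896 when BmTE_RM5-571 was left out of the genome-mapped reads. This last scaling and the sum without the 2 highest were chosen after seeing the data. The share of reads moved to 1.83% in Luc KD and 1.37% in Siwi KD without BmTE_RM5-571 in numerator and denominator, and to 26.6% and 23.9% when divided by genome-mapped reads. Depth limits little, as the counting error of the log2 FC was at most 0.11 for each of the 51. The main limit is that variation between the libraries of a condition is not in these values.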

Other observations

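Curated transposons with rare labels other than Unclassified were at or below the threshold except for BmTE_RM6-2105. Of the 4 DIRS elements, BmTE_RM6-1298 had 6.36 RPKM in the control (654 reads) and 9.22 RPKM in Siwi KD (1006 reads), or a log2 FC of 0.47, and BmTE_RM6-1297 had 5.53 RPKM (1280 reads) and 8.90 RPKM (2188 reads), or a log2 FC of 0.60. With BmTE_RM6-2105, these 3 were all higher in Siwi KD, as were 85.6% of the 389 expressed transposons, so that this is near the background. Whether the 3 share reads was not tested. The remaining DIRS element, DIRS-1_BM, had 22 reads in each condition and a log2 FC of -0.003. No read (0) was counted on the 2 Penelope elements in either condition. The 11 sequences labelled W, with RAPD marker as their family, reached at most 2.02 RPKM. The highest was W-Samurai_partial_1, with 1.22 RPKM in the control (130 reads) and 2.02 RPKM in Siwi KD (228 reads). W-Sasuke had 0.815 RPKM (100 reads) and 1.81 RPKM (236 reads), the largest log2 FC of the W sequences at 0.63. In the other direction, W-Bonsai had 0.456 RPKM (80 reads) and 0.333 RPKM (62 reads). W-Yukemuri_L was also lower in Siwi KD, with 8 and 6 reads, and 2 of the 11 had no read in either condition.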
